A study of Mus musculus with 2 samples.

Results

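The Elane-positive granulocyte-primed progenitors were 388 cells among 18029 passing cells of mouse bone marrow. They were chosen by UMI counts, those of Mpo, Elane, Ngp and Irf8: the cells that passed the authors' quality flag and held at least 20 UMIs of Mpo and at least 5 of Elane, with under 2 of Ngp and under 3 of Irf8. A UMI (unique molecular identifier) marks 1 captured RNA molecule. The marrow came from the femurs and tibias of young wild-type mice (WT) and of young mice whose labels read IκB–, called IkBKO in the deposited cell tables. Which IκB genes were changed, in which cells, and how many animals were pooled is not in the labels. Lineage-negative, Sca-1-positive, c-Kit-high cells (the LSK gate of stem and early progenitor cells) were sorted, 30000 per condition, tagged with oligonucleotide-bearing antibodies and run together in 2 libraries, replicate 1 and replicate 2, each holding both genotypes. Each library and genotype gave 1 pool of Elane-positive cells: 89 WT and 230 IkBKO cells in replicate 1, and 6 WT and 63 IkBKO cells in replicate 2.

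Granulocyte progenitors make the proteins of the primary (azurophil) granules first: myeloperoxidase (Mpo) and the serine proteases neutrophil elastase (Elane), proteinase 3 (Prtn3) and cathepsin G (Ctsg). Expression of these genes depends on the transcription factors PU.1 and C/EBP alpha, while C/EBP epsilon and Gfi1 act in the later step to secondary granules, of which Ngp is a product. Irf8 directs the same progenitors to monocytes and dendritic cells, so a limit on Irf8 keeps the granulocyte-side cells. IκB proteins hold the transcription factor NF-κB inactive in the cytoplasm.

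The sequences before the start sites of 4 primary granule genes are shown because Prtn3 and Ctsg go with Elane among these cells in the values that follow. The 250 bases before each start were taken from RefSeq (build GRCm38.p6): Elane at chr10:79886062-79886311 and Prtn3 at chr10:79879417-79879666, neighbours on the plus strand whose windows begin 6645 bases apart, Mpo at chr11:87793534-87793783 on the plus strand, and Ctsg at chr14:56102575-56102824 on the minus strand. Capitals mark GAGGAA, the core of the sequence that PU.1 prefers, searched on both strands.
Elane: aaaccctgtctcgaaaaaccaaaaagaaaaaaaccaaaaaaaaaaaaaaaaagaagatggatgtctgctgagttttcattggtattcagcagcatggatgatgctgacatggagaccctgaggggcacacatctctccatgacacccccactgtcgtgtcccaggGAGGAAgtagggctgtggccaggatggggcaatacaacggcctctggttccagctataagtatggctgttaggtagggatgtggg
Prtn3: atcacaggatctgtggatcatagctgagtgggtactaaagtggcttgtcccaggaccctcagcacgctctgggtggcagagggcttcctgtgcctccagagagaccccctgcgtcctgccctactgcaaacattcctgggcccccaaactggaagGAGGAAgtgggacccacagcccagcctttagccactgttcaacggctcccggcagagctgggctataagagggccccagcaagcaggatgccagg
Mpo: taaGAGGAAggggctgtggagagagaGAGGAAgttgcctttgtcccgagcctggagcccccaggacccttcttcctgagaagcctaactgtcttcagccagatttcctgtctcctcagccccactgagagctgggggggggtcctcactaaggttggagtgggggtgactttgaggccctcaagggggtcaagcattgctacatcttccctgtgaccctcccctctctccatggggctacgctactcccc
Ctsg: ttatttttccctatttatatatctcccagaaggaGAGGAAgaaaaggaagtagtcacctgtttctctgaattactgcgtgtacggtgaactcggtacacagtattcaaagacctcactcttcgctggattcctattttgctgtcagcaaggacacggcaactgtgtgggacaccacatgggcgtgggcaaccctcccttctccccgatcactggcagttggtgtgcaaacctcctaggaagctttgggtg
All 4 windows held the motif, at 85 bases before the start in Elane, 95 in Prtn3, 216 in Ctsg, and 247 and 224 in Mpo, counted from the motif's first base. Of 32851 RefSeq windows of the same length, 23.3% held it. The looser C/EBP motif TTNNGNAA, with any base at N and searched on both strands, was in 0 of the 4, so no match overlapped a GAGGAA, and in 36.8% of all windows. A match is a run of letters and says nothing of binding.

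The pools differed in depth and in size. The Elane-positive cells held a median of 23288 UMIs per cell in WT replicate 1, 22906 in IkBKO replicate 1, 20160.5 in WT replicate 2 and 24988 in IkBKO replicate 2, against 6983 to 13709 over all passing cells of the 4 pools. The WT pool of replicate 2 summed to only 143090 UMIs, so that 3 UMIs there equal a CPM of 21.0. CPM is the UMIs of a gene per 1e6 UMIs of the pool and is the unit of level throughout, not divided by gene length. The libraries shared 39 passing barcodes, 0.508% of the smaller library. The labels do not say whether the libraries came from separate mice, so no p-value is known to measure the spread between mice. The p-value of a gene test rests on how a difference varies between these 2 libraries or their pools. Its spread is partly borrowed from other genes. A doublet caller marked 1 of all passing cells and so did not work here, and no doublet was removed. The deepest Elane-positive cell of IkBKO replicate 2 held 144464 of the pool's 1599644 UMIs. The deepest cells of the other pools held 40264 to 55722 UMIs. Whether that cell was a doublet was not tested.

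The markers of the label were present. Ly6c2, which encodes the Ly6C surface antigen, was detected in 66.3%, 66.5%, 100% and 71.4% of the cells in WT replicate 1, IkBKO replicate 1, WT replicate 2 and IkBKO replicate 2. Hp, which encodes haptoglobin, a neutrophil granule protein, was detected in 79.8%, 86.1%, 100% and 88.9%, and Ms4a3, a gene of granulocyte-monocyte progenitors, in 91.0%, 97.4%, 100% and 93.7%. In lymphoid-primed cells of the same libraries (at least 5 UMIs of Dntt and under 2 of Mpo), which should lack these RNAs, the highest share of cells was 7.5% for Ly6c2, 1.7% for Hp and 3.6% for Ms4a3, at median depths of 8099 to 11629 UMIs. Prtn3 and Ctsg were detected in every Elane-positive cell. Together Mpo, Elane, Prtn3 and Ctsg made up 2.16%, 1.96%, 3.71% and 1.84% of all UMIs in the 4 pools in the same order. Ly6a, which encodes Sca-1, the antigen the cells were sorted on, was low in RNA. It was at 6.20 and 6.99 CPM in the WT pools, the latter being 1 UMI, and at 24.9 and 31.9 CPM in the IkBKO pools. All other passing cells had 54.7 to 119 CPM.

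Mpo and Elane chose the cells and are given as a description. In replicate 1 Mpo stood at 6014 CPM (WT) and 6294 CPM (IkBKO), in replicate 2 at 6793 CPM and 4821 CPM. Elane stood at 4945 CPM and 3219 CPM in replicate 1 and, in replicate 2, at 14459 CPM and 4380 CPM. The 6 WT cells of replicate 2 stood apart from the other pools, with a median of 380.5 Elane UMIs per cell against 43 to 68. At the edge of the rule, the 33 cells with 5 or 6 Elane UMIs held Prtn3 at 2809 CPM and Ms4a3 at 186 CPM, and the 60 cells just outside, with 3 or 4, held them at 2274 and 170 CPM. Mpo was well above its limit in nearly all cells: 2 had 20 to 22 UMIs, and 0 cells that met the other limits had 17 to 19. The 85 cells with 2 Irf8 UMIs had Prtn3 at 5884 CPM and Ly6c2 at 636 CPM, and the 91 cells with 3 had them at 5577 and 663 CPM.

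Markers of other cell types were looked for in lists of genes. Of 8 T and NK cell genes the sum was 0.4 to 7.0 CPM per pool, and Cd8a and Ncr1 were at 0 in every pool. Of 9 B cell genes the sum was 14.0 to 91.9 CPM, with Cd79b at 6.99 to 44.4 CPM and Ms4a1 at 0 throughout. Of 14 megakaryocyte and erythroid genes the sum was 83.2 to 196 CPM in 3 pools and 555 CPM in IkBKO replicate 2, where Car1, an early erythroid carbonic anhydrase, was at 123 CPM. The 8 genes of mature neutrophils summed to 356 CPM in WT replicate 1, 605 in IkBKO replicate 1 and 566 in IkBKO replicate 2, but to 13865 CPM in WT replicate 2. S100a8 alone was at 291, 448, 8715 and 362 CPM in WT replicate 1, IkBKO replicate 1, WT replicate 2 and IkBKO replicate 2, while Ltf, Ly6g, Retnlg and Mmp8 were at 0 in the WT cells of replicate 2.

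A larger share of the IkBKO cells than of the WT cells met the rule, in both libraries. In replicate 1 the share was 89 of 3721 WT cells (2.39%, exact 95% binomial interval 1.93% to 2.94%) against 230 of 3962 IkBKO cells (5.81%, 5.10% to 6.58%), a ratio of 2.43. In replicate 2 it was 6 of 4963 (0.121%, 0.0444% to 0.263%) against 63 of 5383 (1.17%, 0.900% to 1.49%), a ratio of 9.68. The intervals cover counting error only and did not overlap within either library, but the WT shares of the 2 libraries lay further apart, as a ratio, than WT and IkBKO did in either. Swapping the genotypes within libraries gives an exact two-sided permutation p of 0.5, the smallest that 2 libraries allow. Because a rule in UMIs depends on depth, the shares were recomputed with every cell thinned to 5000 UMIs, where they were 2.49% and 12.4% in replicate 1 (ratio 4.97) and 0.250% and 1.45% in replicate 2 (ratio 5.83). Thinning left out 188 WT and 102 IkBKO cells of replicate 1 and 956 and 503 of replicate 2. The limits stayed at the same UMIs, so those on Irf8 and Ngp let more cells through at this depth. The cells counted thus differed: 88 WT and 478 IkBKO cells in replicate 1 and 10 and 71 in replicate 2. With the rule set in CPM, equal to the UMI rule at 10000 UMIs per cell, the ratios were 3.61 and 6.20. There, too, the Irf8 limit was looser for deeper cells. The part of this in the ratios was not tested.

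The Irf8 limit took the larger part of the Mpo- and Elane-positive cells in every pool. It removed 96 of 185 such WT cells (51.9%) and 732 of 962 IkBKO cells (76.1%) in replicate 1, and 15 of 21 (71.4%) and 82 of 145 (56.6%) in replicate 2. The share removed was thus higher in IkBKO cells in replicate 1 and higher in WT cells in replicate 2. Without the limit the shares were 4.97% and 24.3% in replicate 1 and 0.423% and 2.69% in replicate 2, ratios of 4.88 and 6.37.

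**Figure D1:**
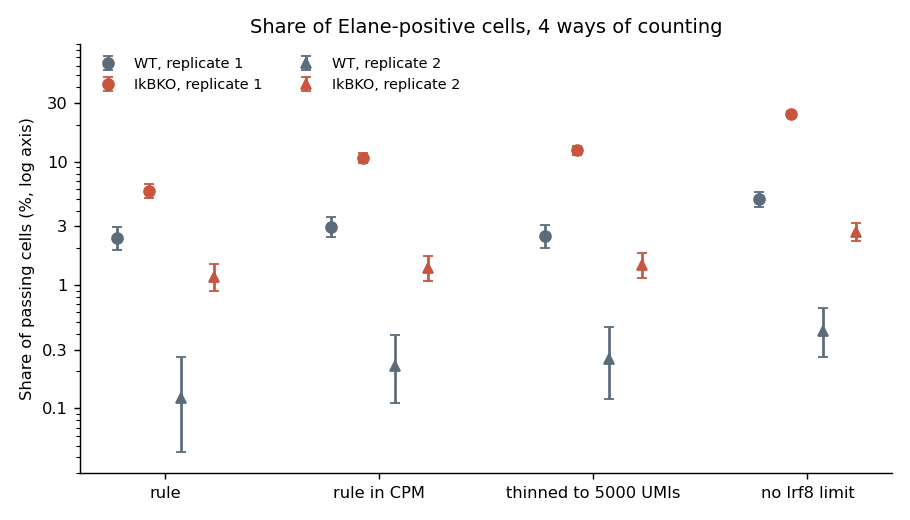
Share of passing cells that met the rule (percent, log axis) in each pool, counted 4 ways; bars are exact 95% binomial intervals. In each way of counting the IkBKO point lies above the WT point of its replicate, from 5.81% against 2.39% (replicate 1) and 1.17% against 0.121% (replicate 2) under the rule itself.

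The cells removed for Irf8 kept the granule genes and added monocyte genes. Klf4, a monocyte transcription factor, was at 0 to 1.3 CPM in the Elane-positive cells and at 37.5 to 41.5 CPM in their Irf8-positive counterparts, without overlap between the 4 pools of each. Ly86, a Toll-like receptor partner of monocytes and dendritic cells, was at 0 to 33.8 CPM against 142 to 234 CPM. Cebpe, which encodes C/EBP epsilon, went the other way, at 169, 61.4, 238 and 91.9 CPM in the Elane-positive cells and at 14.1, 12.3, 46.9 and 18.4 CPM in the Irf8-positive ones. Gfi1, a repressor that favours neutrophils over monocytes, was at 32.1 to 140 CPM against 11.3 to 25.01 CPM. Since Irf8 set the groups apart, these levels are a description.

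**Figure D2:**
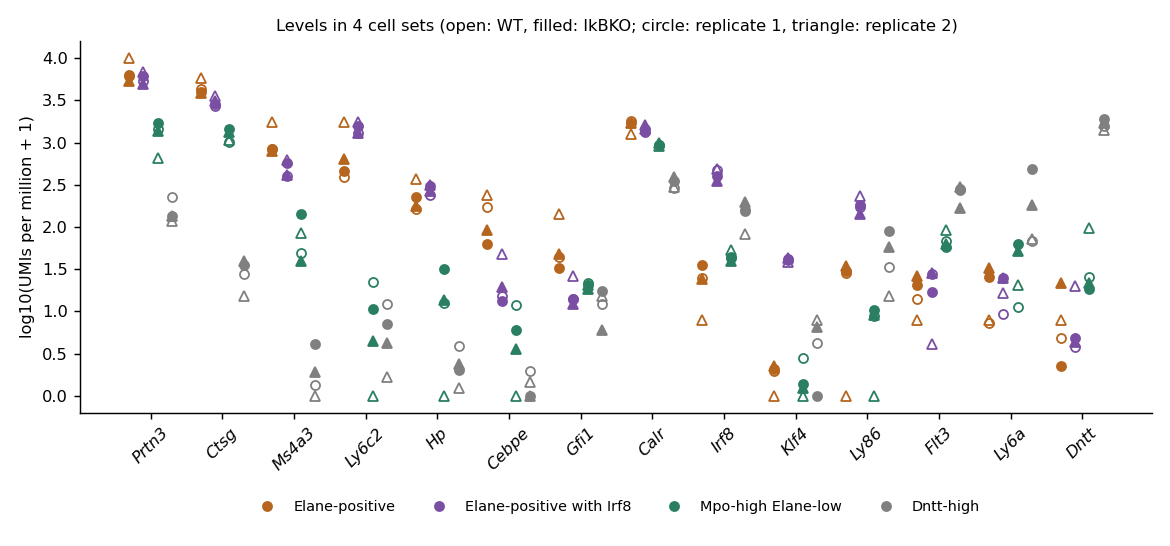
Levels of 14 genes as log10(CPM + 1) in 4 cell sets; each point is 1 pool. Klf4 and Ly86 are high in the Irf8-positive set and Cebpe in the Elane-positive set, and the granule genes are lower in the Mpo-high Elane-low and the Dntt-high sets.

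Within each pool the cells with more Elane also had more of most other early neutrophil genes measured. The cells were ordered by the Elane share of their UMIs and split at the middle: 44 and 44 cells, 115 and 115, 3 and 3, and 31 and 31 in the 4 pools. Prtn3 was at 3735 CPM in the lower and 8581 CPM in the upper part of WT replicate 1, 3995 and 7885 in IkBKO replicate 1, 7322 and 13817 in WT replicate 2, and 3080 and 7441 in IkBKO replicate 2. Ctsg, Ms4a3, Ly6c2, Hp, Cebpe, Gfi1 and Hspa5, the chaperone BiP of the endoplasmic reticulum, were likewise higher in the upper part in 4 of 4 pools. Mpo, S100a8 and Csf3r were higher there in 3 of 4, and Cebpa was lower in 4 of 4. Ms4a3 went from 281 to 1292 CPM in WT replicate 1 and from 435 to 1167 CPM in IkBKO replicate 1. Wfdc21, a gene switched on as granulocytes mature, was nearly absent from the lower part of replicate 1, at 1.1 and 1.2 CPM in WT and IkBKO cells, and at 165 and 171 CPM in the upper part.

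Several genes of earlier progenitors ran against Elane. Cd34, a progenitor surface antigen, was at 229 and 112 CPM in the lower and upper part of WT replicate 1, 227 and 136 in IkBKO replicate 1, 82.7 and 0 in WT replicate 2, and 246 and 93.5 in IkBKO replicate 2. Kit, the stem cell factor receptor, Myc, Sox4, a transcription factor of immature cells, Hoxa9 and Cdk6, a G1 kinase, were also lower in the upper part in 4 of 4 pools. Flt3 and Ly6a were lower there in 3 of 4 and higher in 1, and the lymphoid list was split 2 and 2. The 16 stem cell genes summed to 225 and 87.0 CPM in WT replicate 1 and to 191 and 93.4 CPM in IkBKO replicate 1. Elane made the split and depth moved with it in 3 of 4 pools (medians 21767 and 24707 UMIs in WT replicate 1, for example), so these values are a description, and the part of depth in them was not tested.

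**Figure D3:**
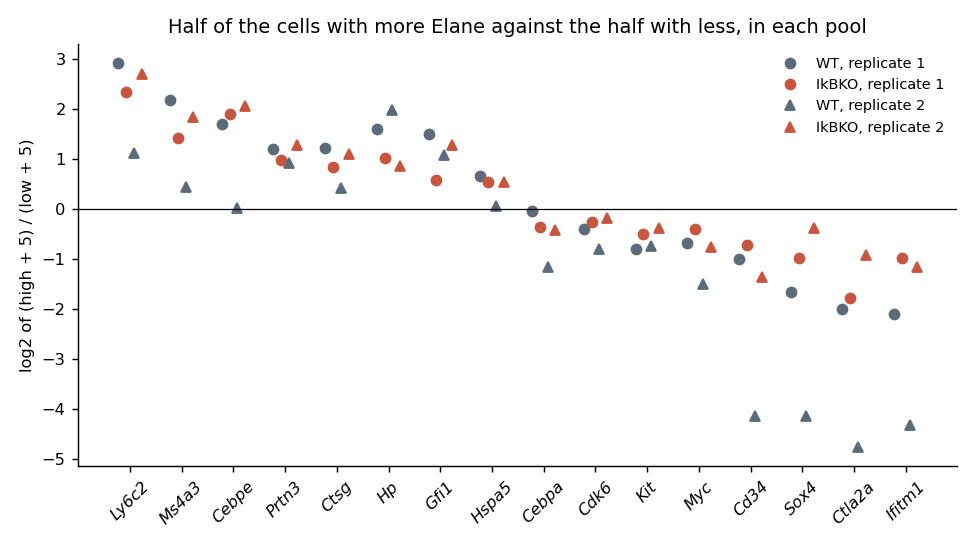
Log2 ratio of CPM (plus 5) between the cells above and below the middle of the Elane share, for 16 genes in each of the 4 pools. Neutrophil genes lie above 0 and Cd34, Kit, Myc, Sox4 and Ctla2a below 0 in every pool, with WT replicate 2 resting on 3 cells a part.

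The nearest other cells were Mpo-high cells with under 5 Elane UMIs and the same Ngp and Irf8 limits: 89 and 296 WT and IkBKO cells in replicate 1 and 8 and 236 in replicate 2. Compared within pools, the Elane-positive cells had higher levels of granule, oxidase, secretory and glycolytic genes and lower levels of stem cell genes. Of 9121 genes tested, 2390 were called (26.2%), 1253 higher (13.7%) and 1137 lower (12.5%), by edgeR's quasi-likelihood test at an adjusted p of 0.05. Because Elane in the same cells drew the line, genes that go with Elane had to differ, and the calls describe the 2 sides of the line rather than test it. The median depth also differed, 20160.5 to 24988 UMIs against 16402.5 to 18892. With all cells thinned to 5000 UMIs before the rule, 2906 genes were tested and 102 called. The rule then picked other cells. The Elane-low pools held 14 WT and 167 IkBKO cells in replicate 1 and 1 and 23 in replicate 2. The parts of depth, pool size and choice of cells in the lost calls were not tested.

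Among granule genes, 10 of 16 tested primary granule genes were higher and 1 lower, with a median log2 fold of 1.36 against 0.00 over all genes. Ms4a3 was at 835, 848, 1747 and 788 CPM in the Elane-positive pools (WT and IkBKO of replicate 1, then of replicate 2) and at 48.6, 141, 84.2 and 38.3 CPM in the Elane-low pools (log2 3.63 ± 0.46 SE, edgeR adjusted p = 0.017). Every Elane-positive pool was above every Elane-low pool. Hp followed (log2 3.45 ± 0.31), then Prtn3 (2.39 ± 0.43) and Ctsg (1.91 ± 0.25). Rnase6, an antimicrobial ribonuclease of monocytes, was lower (−1.85 ± 0.31). Of 8 tested genes of the later granule list, which is not limited to granule proteins, 6 were higher and 1, Padi4, lower. Wfdc21 was at 90.1, 96.9, 538 and 51.3 CPM against 0 to 1.8 CPM. Of the 6 subunit genes of the phagocyte NADPH oxidase, the superoxide-making enzyme, 4 were higher. Among them Cybb, its catalytic chain, was at 14.8 to 90.8 CPM against 0 to 3.1 CPM, and Ncf1 and Ncf4 had log2 folds of 0.97 and 0.51.

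The genes of protein folding and export were higher throughout. All 28 of the endoplasmic reticulum and secretory genes were higher, with a median log2 fold of 0.89. Calr, the calcium-binding chaperone calreticulin, was at 1777, 1702, 1251 and 1713 CPM in the Elane-positive pools and at 926, 939, 901 and 984 CPM in the Elane-low pools (log2 0.91 ± 0.07). The ranges did not overlap. Sdf2l1, a co-chaperone, had the highest log2 fold of the 28 (1.44 ± 0.08), ahead of Tmed3, a cargo receptor (1.26 ± 0.08), Hyou1 (1.18 ± 0.13) and P4hb, a protein disulfide isomerase (1.16 ± 0.07). Spcs1, a signal peptidase subunit, had the lowest (0.34 ± 0.08). The count stayed at 28 of 28 with DESeq2, without any 1 pool and at looser and stricter Mpo and Elane limits, but 5 of 27 were called in thinned cells, with 27 of 27 above 0 and a median of 0.42. At 5000 UMIs per cell, with the cells chosen at full depth, the genes gave a median of 48.5 to 53 UMIs in the Elane-positive pools, 29 to 30 in the Elane-low pools and 19 to 23 in all other passing cells.

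Energy genes were also higher, by less. Of 14 glycolysis genes 11 were higher, led by Gpi1, glucose-6-phosphate isomerase (log2 0.88 ± 0.10), and Aldoa, aldolase (0.80 ± 0.08). Of 24 nuclear respiratory chain genes 21 were higher, with a median of 0.30. In thinned cells, with the small Elane-low pools given above, 2 of 11 and 0 of 24 were called.

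Transcription factor genes went both ways. Cebpe had the highest fold of the 17 tested (log2 4.27 ± 0.19), followed by Cebpd (1.24 ± 0.24), Tfec (1.23 ± 0.17), Gfi1 (1.16 ± 0.16) and Cebpb (1.08 ± 0.11). Spi1, which encodes PU.1, and Cebpa differed less (0.34 ± 0.08 and 0.42 ± 0.11). Lower were Sox4 (−1.11 ± 0.10), Runx1 (−0.51 ± 0.10), Etv6, Hoxa9 and Lmo4, so that 8 of 17 were higher and 5 lower. Of the stem cell genes 9 of 10 were lower and none higher, with Hlf at 20.03, 14.9, 62.9 and 36.9 CPM against 86.3, 44.3, 97.2 and 107 CPM (log2 −1.57 ± 0.13) and Meis1 at −1.55 ± 0.12.

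Of 17 receptor genes 7 were higher and 4 lower. Fcgr3, an IgG receptor, was at 60.0 to 126 CPM against 3.7 to 25.9 CPM (log2 3.01 ± 0.19), and Ifngr1, the interferon gamma receptor chain, at 141 to 245 CPM against 56.7 to 90.7 CPM (1.61 ± 0.10). Csf2ra, the GM-CSF receptor chain, was higher by 0.86 ± 0.14. Csf3r, the G-CSF receptor, was at 42.5 to 55.9 CPM against 43.1 to 47.4 CPM and was not called (0.08 ± 0.12, edgeR adjusted p = 0.68). Flt3, the receptor of early and lymphoid progenitors, was lower (−1.61 ± 0.14), as was Il1r1, an interleukin 1 receptor (−1.27 ± 0.24).

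Cell cycle genes differed little. Of 30 G1/S genes 1 was higher and 4 lower, and of 40 G2/M genes 1 was higher and 7 lower, with medians of −0.04 and −0.16. Of 9 G1 cyclin and inhibitor genes 6 were lower, among them Cdkn1b, which encodes p27 (−0.98 ± 0.17), and Ccnd1 (−0.90 ± 0.22), a cyclin gene at 0 to 18.6 CPM against 11.3 to 58.3 CPM. Of 21 interferon-response genes 8 were lower and 1 higher. By the naming rule the 8 highest genes were Wfdc21, Fcnb, Clec4a2, Ly6c2, S100a8, Hsd11b1, Gda and Serpine2 (log2 7.26 to 4.85), and the 8 lowest Ctla2a, Gimap1, Wfdc17, Ddah2, Gimap6, Ccl3, Slc22a3 and Hbb-bt (−1.98 to −1.71). Fcnb, a ficolin of neutrophil granules, was at 699 CPM in the Elane-positive cells of WT replicate 2 against 12.9 to 15.6 CPM in the other 3 pools.

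**Figure D4:**
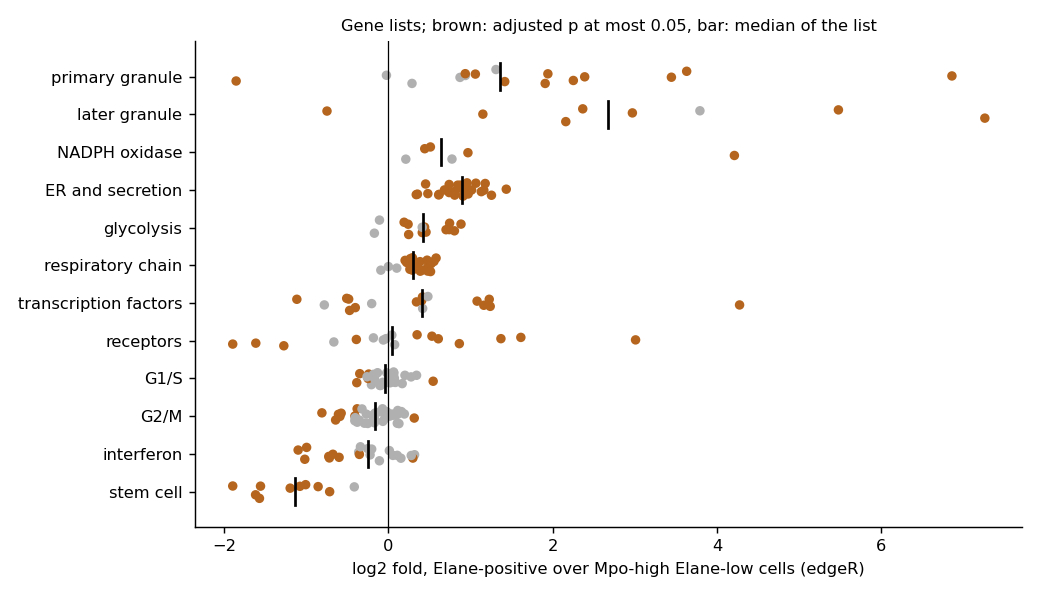
Log2 fold of Elane-positive over Mpo-high Elane-low cells for the genes of 12 lists; each point is a gene, brown where the edgeR adjusted p is at most 0.05, and bars are list medians. The endoplasmic reticulum list lies wholly above 0 (median 0.89) and the stem cell list wholly below 0 (median −1.13).

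Between genotypes, the IkBKO cells had higher levels of some interferon-response genes, the MHC class I gene H2-Q7 and Ly6a, and lower levels of Cebpe and of a few immediate-early genes. Of 8975 genes tested in the Elane-positive cells, 94 were called (1.05%), 33 higher (0.368%) and 61 lower (0.68%) in IkBKO cells, by edgeR's quasi-likelihood test with the library as a block. All 33 were higher in both libraries, and 53 of the 61 were lower in both. The same 2 libraries gave the calls, so these counts are a description. The comparison rests on few WT cells: without the 6 WT cells of replicate 2 the test called 42 genes, 30 of them among the 94, and DESeq2 called 13. A genotype fit that leaves out 1 pool also goes without the library block, so a call lost there can come from either change. With all pools but no block, 16 genes were called. Of the 24 genes named by rule, 10 stayed called with DESeq2 and 8 without the block. In these comparisons the WT value is given first and the IkBKO value second.

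AA465934, annotated as a processed transcript without a protein, at chr11:83291699-83294632 (mm10, plus strand), had the highest log2 fold among the genes named by rule. It was at 7.63 against 168 CPM in replicate 1 and 0 against 99.4 CPM in replicate 2 (log2 4.54 ± 0.38, edgeR adjusted p = 2.2e-29). It was found in 8 of 89 and 218 of 230 cells of replicate 1 and in 0 of 6 and 55 of 63 cells of replicate 2. All other passing cells showed the same split, at 5.12 against 184 CPM in replicate 1 and 4.57 against 117 CPM in replicate 2. The call was lost without WT replicate 1 (edgeR adjusted p = 0.11), which leaves a WT pool with no UMI of the gene.

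Of 20 interferon-response genes tested, 6 were higher and none lower in IkBKO cells, with a median log2 fold of 0.83 against 0.01 over all genes. Ifitm1, a membrane protein that restricts virus entry, was at 333 against 874 CPM in replicate 1 and 55.9 against 359 CPM in replicate 2 (log2 1.71 ± 0.20, edgeR adjusted p = 5.5e-15). Both IkBKO pools were above both WT pools. In all other passing cells Ifitm1 was at 805 against 904 CPM and 833 against 889 CPM. The Mpo-high Elane-low cells, which are among these, had it at 790 against 1501 CPM and 376 against 769 CPM. The rise was thus also present in the nearest other cells. Ifitm3 was at 326 against 573 CPM and 119 against 369 CPM (1.07 ± 0.19). The interferon-gamma-induced GTPase genes Iigp1, Igtp and Gbp5 were at 1.4 to 5.7 CPM in WT replicate 1 and at 0 in WT replicate 2, where 21.0 CPM could have gone unseen, against 15.5 to 26.8 and 6.3 to 10.6 CPM in the IkBKO pools. Isg15 and Ifit2, targets of type I interferon, were not called (0.83 ± 0.59 and −0.59 ± 0.56). Ifitm1 ran against Elane among the cells of each pool, going from 578 to 131 CPM between the lower and the upper part of WT replicate 1 and from 1211 to 614 CPM in IkBKO replicate 1. Elane was lower in the IkBKO cells, and its part in the Ifitm1 difference was not tested. Without WT replicate 2, and so without the block, the call of Ifitm1 was lost and the list's median log2 fold was 0.51. With all pools but no block the median was 0.59 and 0 of 20 list genes were called. DESeq2 called 1 of 20.

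Serpina3g, a serine protease inhibitor, was at 30.05 against 138 CPM in replicate 1 and 21.0 against 79.4 CPM in replicate 2 (log2 2.15 ± 0.31), and was found in 197 of 230 and 43 of 63 IkBKO cells. H2-Q7, an MHC class I gene, was at 107 against 265 CPM and 55.9 against 243 CPM (1.49 ± 0.23). Both had non-overlapping pools, and their calls remained without WT replicate 2. Gdpd3, a lysophospholipase, was at 10.0 against 52.4 CPM and 6.99 against 32.5 CPM (2.37 ± 0.45). All other passing cells showed these 3 differences too. Serpina3g was at 71.0 against 206 CPM in replicate 1 and 83.6 against 185 CPM in replicate 2. H2-Q7 was at 217 against 383 CPM and 251 against 455 CPM, and Gdpd3 at 3.25 against 51.3 CPM and 1.29 against 36.8 CPM. Ly6a rose by 2.01 ± 0.54 on the log2 scale from the low levels given above. Lcn2, lipocalin of neutrophil granules, was at 24.8 against 63.4 CPM and 21.0 against 35.6 CPM (1.28 ± 0.34). Mtss1 rose by 1.92 ± 0.52 and Wdfy1 by 1.56 ± 0.44. In all other passing cells Lcn2 went the other way, at 41.9 against 17.5 CPM and 29.2 against 7.24 CPM. Mtss1 was at 22.8 against 21.9 CPM and 25.9 against 27.8 CPM there. The WT values of replicate 2 were small counts. Gdpd3, Ly6a and Wdfy1 had 1 UMI each, and Mtss1 had 0. Serpina3g had 3 UMIs in 1 cell, and Lcn2 had 3 in 2 cells.

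Of 6 MHC class II genes tested, Cd74, the invariant chain, H2-Eb1 and H2-Aa were called higher and none lower. Few cells carried Cd74. Cd74 was at 2.38 against 24.9 CPM in replicate 1 and 0 against 135 CPM in replicate 2 (log2 3.83 ± 0.51). Yet 39 of 230 IkBKO cells of replicate 1 and 10 of 63 of replicate 2 held any Cd74, and 3 cells held 64.5% and 92.1% of its UMIs. In thinned cells the 3 genes had log2 values of −0.63, −0.10 and −0.44 and were not called. In all other passing cells Cd74 was at 119 against 459 CPM in replicate 1 and 117 against 713 CPM in replicate 2, above the Elane-positive cells of the same pool, and the part of RNA from other cells was not tested.

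Cebpe was the called gene among 18 transcription factors. It was at 169 against 61.4 CPM in replicate 1 and 238 against 91.9 CPM in replicate 2 (log2 −1.45 ± 0.23, edgeR adjusted p = 8.6e-08), lower in IkBKO by a like amount in both libraries. Thinned to 5000 UMIs, 44.9% of WT and 17.5% of IkBKO cells of replicate 1 and 83.3% and 25.4% of replicate 2 held it. The call remained without WT replicate 2 (edgeR adjusted p = 3.0e-05) and was lost without IkBKO replicate 1 (0.41). Cebpe goes with Elane among the cells, and Elane was also lower in IkBKO cells of both libraries (values above). The part of Elane in the Cebpe difference was not tested. Cd63, a granule membrane protein, moved the same way, at 517 against 243 CPM and 985 against 243 CPM (−1.55 ± 0.18), as did Clec12a, an inhibitory lectin receptor, at 295 against 160 CPM and 727 against 261 CPM (−1.19 ± 0.19).

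Of 12 immediate-early genes 3 were lower and none higher. With DESeq2, and in the fit without the replicate block, 0 of 12 were called. Jun, an AP-1 subunit, was at 88.2 against 35.7 CPM in replicate 1 and 140 against 58.1 CPM in replicate 2 (log2 −1.31 ± 0.27). Fosb was at 11.4 against 1.98 CPM and 21.0 against 5.63 CPM (−2.35 ± 0.56), the WT value of replicate 2 being 3 UMIs. Egr1 was called lower (−2.31 ± 0.53) from replicate 1 alone, at 17.6 and 2.34 CPM, and was at 0 and 6.25 CPM in replicate 2. Its 37 UMIs in WT replicate 1 lay in 12 of 89 cells, with 70.3% in 3 cells. All other passing cells had Jun at 186 against 78.0 CPM in replicate 1 and 261 against 103 CPM in replicate 2.

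The 9 primary granule genes called lower, of 15 tested, rested on WT replicate 2. Prtn3 was at 6378 against 6193 CPM in replicate 1 and 9973 against 5323 CPM in replicate 2, Ms4a3 at 835 against 848 CPM and 1747 against 788 CPM. None of the 9 was over 1.5-fold lower in replicate 1. Without WT replicate 2, and so without the block, the list's median log2 fold was −0.09, against −0.51 in the main fit. With all pools but no block it was −0.53, and 0 of 15 were called. Of 9 tested genes of the later granule list, S100a8, S100a9, Wfdc21 and Pglyrp1 were called lower in the same way, and Lcn2 higher. Without WT replicate 2 the log2 values of S100a8, S100a9, Fcnb, Ly6c2 and Pglyrp1 were above 0 (0.44, 1.75, 0.20, 0.42 and 0.01), and S100a9 was called higher. G0s2, Olr1, Syne1, Clec4a2, Slc40a1 and Marcks (log2 −2.39 to −1.58) were lower in IkBKO cells of both libraries. Their calls were lost in the fit that lacked the block and WT replicate 2. The calls of Rnase12 (−2.09 ± 0.44), Trem3 (−1.77 ± 0.24) and Gpc1 (−1.72 ± 0.42) held without it. Rnase12 had 22.4 against 5.22 CPM in replicate 1 and 28.0 against 6.88 CPM in replicate 2.

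The lowest folds belonged to eosinophil granule genes from a handful of cells. Prg2, which encodes major basic protein, was at 366 against 0.36 CPM in replicate 1 and 6.99 against 0 CPM in replicate 2. Its 768 UMIs in WT replicate 1 lay in 8 of 89 cells, with 99.2% in 3 cells, against 2 UMIs in IkBKO cells (ratio 1017, counting interval 281 to 8413, which takes no account of their sharing cells). Prg3 followed, with 79 and 4 UMIs in replicate 1. The 8 eosinophil genes summed to 455 CPM in WT replicate 1 and to 10.3, 34.9 and 10.6 CPM in the other pools, with Epx in 3 cells of WT replicate 1.

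**Figure D5:**
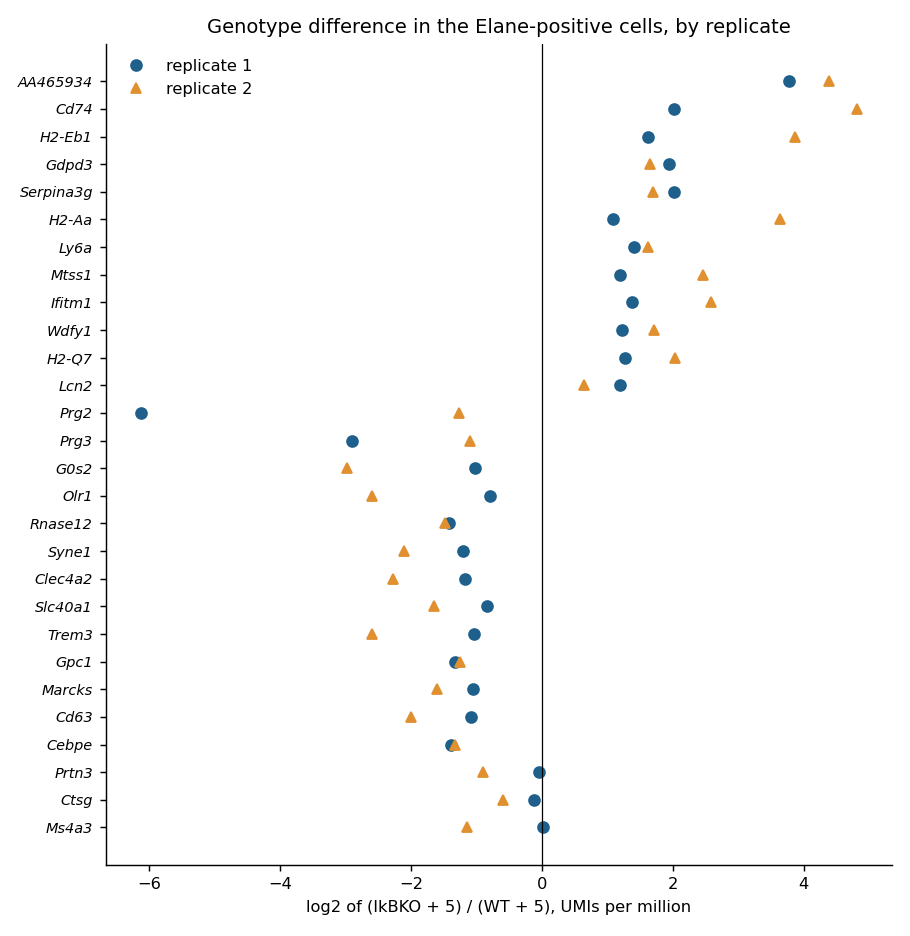
Log2 ratio of IkBKO to WT CPM (each plus 5) in the Elane-positive cells, for the 24 genes named by rule and 4 further genes, by replicate. Cebpe, Gpc1 and Rnase12 have nearly the same value in both replicates, whereas Prtn3, Ctsg and Ms4a3 lie near 0 in replicate 1 and below 0 in replicate 2.

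Further lists held few calls or none between genotypes. In simulated counts this fit called 10.3% of 2-fold changes, so a missing call does not show equal levels. Of 16 surface antigen genes of the gate 2 were higher and 2 lower, of 10 monocyte and dendritic cell genes 1 was higher and 1 lower, and of 10 stem cell genes 1 was higher. The oxidase (6 tested), mast cell (7) and iron (6) lists had 1 lower gene each. None of 28 endoplasmic reticulum genes, 30 G1/S genes, 40 G2/M genes, 24 respiratory chain genes, 14 glycolysis genes, 17 receptor genes or 15 NF-κB target genes passed, with list medians between −0.04 and 0.14. Of the IκB genes, Nfkbia was at 36.2 against 26.5 CPM in replicate 1 and 76.9 against 33.8 CPM in replicate 2 and was not called (log2 −0.68 ± 0.35). Nfkbib, which encodes IκB beta, was called lower (−1.80 ± 0.48, edgeR adjusted p = 0.022), from 18.1 and 4.32 CPM in replicate 1, while replicate 2 had 6.99 and 6.88 CPM, the WT value being 1 UMI. Nfkbie, which encodes IκB epsilon, had 9 UMIs (WT) and 8 UMIs (IkBKO) in replicate 1 and 1 in each genotype in replicate 2, too few to test. A 3′ UMI does not show whether the transcript makes a protein, so these levels do not check the genotype labels.

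Whether the genotype difference was particular to the Elane-positive cells was tested against the Mpo-high Elane-low cells. Of 9843 genes, 7 were called (0.0711%), 0 higher (0%) and 7 lower (0.0711%) by edgeR, and 231 had an unadjusted p under 0.05. DESeq2 called none, with 42 under 0.05. In the Elane-positive cells Ctsg had 4289 against 3938 CPM in replicate 1 and 5849 against 3870 CPM in replicate 2 (WT first). In the Elane-low cells it had 1010 against 1453 CPM and 1076 against 1344 CPM, the opposite direction (log2 of the difference −0.88 ± 0.13, edgeR adjusted p = 1.2e-07). Gstm1, a glutathione transferase, Nkg7 and Igsf6 also passed, and so did the eosinophil genes Prg2, Prg3 and Epx. Ctsg, Gstm1 and Nkg7 go with Elane among the Elane-positive cells, being higher in the upper part in 4 of 4 pools. Elane, which chose the cells, was lower in IkBKO Elane-positive cells of both libraries. The part of Elane in these differences was not tested. AA465934, Ifitm1, Serpina3g, H2-Q7, Jun and Cebpe were not among the 7. In simulated counts this fit called 8.2% of 2-fold differences, so a missing call does not show an equal genotype difference.

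Tags for surface antigens were used here from replicate 1. The CD48 tag, an antigen gained as stem cells become progenitors, had a median of 561 counts per cell in the WT and 583.5 in the IkBKO Elane-positive cells, against 684 and 687 in the Mpo-high Elane-low cells and 474 and 566.5 in all other passing cells. CD150, a stem cell antigen, had medians of 102 and 100.5, and Flt3 of 119 and 113. With 1 library there is no test of these values. At 5000 UMIs per cell the Elane-positive cells held a median of 1793 and 1792.5 genes in replicate 1 and 1727 and 1864 in replicate 2 (WT, then IkBKO). The share of cells with at least 20 UMIs of the 40 G2/M genes at that depth was 14.6% and 18.4% in replicate 1 and 33.3% and 39.7% in replicate 2, higher in replicate 2 than in replicate 1 in both genotypes.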

How the data were processed

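Raw UMI counts per gene and cell were taken as deposited by the authors, with their quality flag and genotype call per cell. Per the submitters' processing notes, Cell Ranger 7.0, Seurat 4.3.0 and build mm10 were used, and the matrix header names Cell Ranger 6.0.0. How the quality flag was set is not stated in the labels. The cells, gene lists and tests were chosen with earlier results of these data known.

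Counts of the cells meeting the rule were summed per library and genotype (4 pools, 8 with the Mpo-high Elane-low cells). Pools were compared with edgeR 4.0.16 (filterByExpr, TMM, robust quasi-likelihood F test, Benjamini-Hochberg at 0.05) with the library, or the pool, as a block. The block comes from the labels, since both genotypes of a replicate share a library; the deviations of same-numbered pools correlated at 0.18 over 9186 genes. With 1 residual degree of freedom in the genotype comparison, its spread leans on the trend over genes. Mpo, Elane, Ngp and Irf8 chose the cells and were not tested. Log2 values carry the standard error of the fit. Gene coordinates are from the GENCODE vM21 annotation, which held 99.6% of the gene IDs. Names follow a rule: for genotypes the 12 highest and 12 lowest called genes with 1 direction in both libraries and at least 20 CPM in 1 genotype, 8 and 8 for the other comparisons, the markers, the IκB genes and members of 28 lists. Fits were tested on simulated counts. The genotype fit called 2.6% of genes changed 1.5-fold, 10.3% of those changed 2-fold and 78.2% of those changed 4-fold. The interaction fit called 0%, 8.2% and 65.3%, and the fit between cell sets 21.9%, 84.4% and 93.1%. Alternatives were DESeq2 1.42.0, other filters, thresholds and depths, and each pool left out; 2 list genes were not found in the matrix by name.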

Additional observations from a re-analysis of the deposited data

Results flagged for a closer look

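The genotype difference itself differed between the Elane-positive and the Mpo-high Elane-low cells for 7 of 9843 genes by edgeR's test of the interaction. For all 7 the IkBKO over WT difference was lower in the Elane-positive cells than in the Elane-low cells. DESeq2 called 0 genes (42 at an unadjusted p under 0.05). The log2 value is the IkBKO over WT difference in the Elane-positive cells minus that in the Elane-low cells. Ctsg, the cathepsin G gene, stood at −0.88 ± 0.13 (edgeR adjusted p = 1.2e-07), lower in IkBKO Elane-positive cells and higher in IkBKO Elane-low cells of both libraries. Nkg7, a granule membrane protein gene, stood at −1.05 ± 0.23 (edgeR adjusted p = 0.0091), Gstm1 at −1.28 ± 0.29 (0.0097) and Igsf6, an immunoglobulin-family receptor gene, at −1.89 ± 0.46 (0.048). Igsf6 was at 82.5 against 90.2 CPM (WT against IkBKO) in the Elane-positive cells of replicate 1 and 175 against 101 CPM in replicate 2. In the Elane-low cells it was at 6.68 against 26.6 CPM and 19.4 against 22.1 CPM, the WT pool of replicate 2 being 8 cells. Gstm1 was at 356 against 215 CPM (WT against IkBKO) in the Elane-positive cells of replicate 1 and 741 against 292 CPM in replicate 2, and at 38.9 to 60.0 CPM in the Elane-low pools. Ctsg, Nkg7 and Gstm1 go with Elane among the Elane-positive cells, and Elane was lower in those of IkBKO. The part of Elane in these values was not tested. Prg2 stood at −8.79 ± 0.56, Prg3 at −6.75 ± 0.91 and Epx at −14.29 ± 1.54, eosinophil granule genes with pools at or near 0, so these fitted values are no measure of size. They rest on single cells: 69 of 70 Epx UMIs of the IkBKO Elane-low pool of replicate 1 were in 1 cell, and all 69 of the WT Elane-positive pool were in 3 cells.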

How the results depend on the processing

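The counts of called genes moved with the processing in all 3 gene comparisons. Between genotypes, against 94 genes called, 13 were called with DESeq2, 58 with no filter on low counts, 14 with Mpo at least 10 and Elane at least 3, 61 with Mpo at least 40 and Elane at least 10, 35 in cells thinned to 5000 UMIs, and 23 to 101 with 1 pool left out. The genotype fits with 1 pool left out also had no replicate block. With all pools but no block, 16 genes were called, all among the 94. Of alternatives chosen after seeing the data, leaving out the top doublet scores gave 31 calls, leaving out cells above 40000 UMIs gave 52, and no limit on Irf8 gave 110, of which 57 were among the 94. The comparison with Mpo-high Elane-low cells, 2390 calls, had 1185 with DESeq2, 3836 at the looser and 1219 at the stricter thresholds, 102 in thinned cells, 3709 with no limit on Irf8, and 1402 to 2814 with 1 pool left out. The interaction, 7 calls, had 0 with DESeq2, 19 at the looser thresholds, 0 in thinned cells (100 at an unadjusted p under 0.05), 29 with no limit on Irf8, and 3 to 72 with 1 pool left out. The 72 and a count of 67 came without the Elane-positive IkBKO or WT pool of replicate 1, and 4 of the 7 genes were among each. In thinned cells the rule picked other cells, and the Elane-low pool of WT replicate 2 was 1 cell.

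Directions turned for few named genes. In thinned cells the genotype values were −0.63 for Cd74, −0.10 for H2-Eb1, −0.44 for H2-Aa and 0.18 for Ly6c2, and Top2a between the cell sets was 0.12. With 1 pool left out, the genotype value ran from −1.65 to 0.42 for Ly6c2, −4.39 to 0.44 for S100a8, −4.97 to 1.75 for S100a9, −5.48 to 0.20 for Fcnb and −2.33 to 0.0059 for Pglyrp1, the upper end of each being without WT replicate 2. The cause was not tested. The share was higher in IkBKO cells of both libraries under every rule tried. The geometric mean of the 2 ratios was 4.09 to 5.58, against 4.85 under the main rule. In the single libraries the main rule gave 2.43 and 9.68. The doublet caller marked 1 cell, so the planned gene tests without its doublets were not run.

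The 6 WT cells of replicate 2 limit every genotype statement, since a gene under 21.0 CPM there can go unseen. In the genotype comparison the fit has 1 residual degree of freedom.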
